A study of Mus musculus with 2 samples.

Results

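The 10 genes described here are the immunoglobulin heavy chain constant genes Ighm, Ighd, Ighg3, Ighg1, Ighg2b, Ighg2c and Igha, the light chain constant genes Igkc and Iglc1, and Jchain. They were taken by symbol from the 32285 mouse genes of the count tables, and all 10 were found, each on 1 row. The data are single-cell RNA counts from mouse brain holding an implanted GL261 tumour, a glioma line of C57BL/6 origin, together with the tissue around it. The tumours were taken 24 days after implantation. The library labelled Cav3.2KO came from hosts with the genotype Cacna1h-/-, that is without the gene of the T-type calcium channel Cav3.2, and the library labelled Wild Type from C57BL/6 wild type hosts. The sources used here do not give the ages or sexes of the hosts, or how the deletion was made. There was 1 library per genotype, and the sources used here do not say how many animals went into each. The implanted cells in both libraries were GL261 and not of the host genotype.

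An antibody is built from paired heavy and light chains. The heavy chain constant gene sets its class (mu for IgM, delta for IgD, gamma for the IgG subclasses, alpha for IgA), and the light chain carries a kappa or a lambda constant region. A naive B cell makes IgM and IgD from a shared transcript by splicing, then may switch by DNA recombination to a gamma, epsilon or alpha gene further along the locus. A plasma cell is a B cell turned over to secretion, in which constant gene transcripts are among the most abundant in the cell. Jchain encodes the joining chain that links IgM and IgA units into polymers.

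The heavy chain genes lie in their switching order on the minus strand of chromosome 12 in the GENCODE M21 annotation of GRCm38. Ighm is at chr12:113418558-113422730, followed by Ighd at chr12:113406604-113416324, Ighg3 at chr12:113356224-113361232, Ighg1 at chr12:113325240-113330523, Ighg2b at chr12:113302965-113307933, Ighg2c at chr12:113285325-113288932 and Igha at chr12:113254830-113260236. Igkc is at chr6:70726435-70726966 on the plus strand, Iglc1 at chr16:19061618-19062071 and Jchain at chr5:88519809-88527891, both on the minus strand. Since isotypes are read below from constant gene UMIs alone, the coding ends of the gamma genes are shown first. They are the last 90 coding bases before the stop codon of the secreted form, 5′ to 3′ on the minus strand of GRCm38, with capitals at the 48 positions where the 4 genes are not all alike.
Ighg1, chr12:113328979-113329068: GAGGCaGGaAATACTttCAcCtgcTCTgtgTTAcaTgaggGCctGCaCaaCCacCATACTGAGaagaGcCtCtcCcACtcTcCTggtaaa
Ighg2b, chr12:113306392-113306481: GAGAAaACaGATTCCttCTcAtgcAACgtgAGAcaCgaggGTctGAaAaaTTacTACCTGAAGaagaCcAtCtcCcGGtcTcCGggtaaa
Ighg2c, chr12:113287392-113287481: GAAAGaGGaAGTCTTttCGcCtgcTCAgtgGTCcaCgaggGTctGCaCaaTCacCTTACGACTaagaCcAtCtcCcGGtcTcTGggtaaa
Ighg3, chr12:113359668-113359757: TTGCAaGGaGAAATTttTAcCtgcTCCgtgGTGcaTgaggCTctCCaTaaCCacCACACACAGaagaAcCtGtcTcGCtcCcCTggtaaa
Between pairs of these genes 23 to 36 of the 90 bases differed. Ighg2b and Ighg2c differed at 28, but the 100 bases after their stop codons could be matched with 9 edits, so reads there tell these genes apart by fewer bases than reads in the coding part.

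The lambda genes show the opposite case, because Iglc1 has a partner pair that is nearly identical. The same 90 bases of Iglc1, Iglc2 and Iglc3 follow, again on the minus strand of GRCm38, with capitals at the 29 positions where the 3 are not all alike.
Iglc1, chr16:19061755-19061844: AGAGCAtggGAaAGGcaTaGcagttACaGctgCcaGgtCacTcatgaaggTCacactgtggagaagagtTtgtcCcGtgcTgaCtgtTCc
Iglc2, chr16:19198539-19198628: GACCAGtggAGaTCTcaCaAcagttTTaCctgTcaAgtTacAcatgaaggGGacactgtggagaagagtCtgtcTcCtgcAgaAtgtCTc
Iglc3, chr16:19065368-19065457: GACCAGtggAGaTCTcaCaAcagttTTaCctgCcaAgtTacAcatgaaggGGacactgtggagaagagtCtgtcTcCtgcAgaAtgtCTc
Iglc1 differed from Iglc2 at 29 of these bases and from Iglc3 at 28, while Iglc2 and Iglc3 differed at 1. UMIs of Iglc2 and Iglc3 may therefore be split between the pair by the authors' counting, and their values are given as uncertain.

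After filtering, 6575 cells remained under the Cav3.2KO label and 3110 under the Wild Type label, with 100764971 and 52031677 mouse UMIs and medians of 11071 and 12522.5 UMIs per cell. The 2 libraries shared 21 cell barcodes among all and 7 among kept cells. Cacna1h itself had 168 UMIs (1.67 CPM, UMIs per 1000000 mouse UMIs) in kept cells under the Cav3.2KO label and 13 UMIs (0.250 CPM) under the Wild Type label. The sources used here do not say which part of the gene was deleted, so a 3′ tag may check nothing, and the groups are called by their labels. The libraries also differed in sex-linked transcripts: 3940 kept cells had Xist and no Y-linked UMI and 928 the reverse under the Cav3.2KO label, against 5 and 2077 under the Wild Type label. Among T cells these numbers were 1146 and 282, against 0 and 529. Sex and genotype therefore cannot be told apart in comparisons over all cells. Each group is a single library, so nothing below is checked by replicates, and every interval covers counting error only.

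Cells were gated by 8 markers per class, none of them an immunoglobulin gene. B cells made up 289 of 6575 kept cells under the Cav3.2KO label (4.40%, exact 95% binomial interval 3.91 to 4.92%) and 58 of 3110 under the Wild Type label (1.86%, 1.42 to 2.40%). Among cells that carried Y-linked but not Xist UMIs the shares were 5.82% and 2.26%. Plasma cells by this gate numbered 24 (0.365%, 0.234 to 0.543%) and 4 (0.129%, 0.0351 to 0.329%), with intervals that overlap. These counts include cells with few or no antibody transcripts. At least 1000 UMIs of the 10 genes were held by 23 of the 24 and 2 of the 4, and the other 2 Wild Type cells had none. The gate's B cell markers were present: Ebf1, a B lineage transcription factor, was detected in 98.6% of gated B cells under the Cav3.2KO label and every such cell under the Wild Type label, and Cd79a, part of the B cell receptor complex, in 99.0% and 91.4%. Mzb1, a chaperone of antibody-secreting cells, was detected in 95.8% of gated plasma cells under the Cav3.2KO label and in 2 of the 4 under the Wild Type label.

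**Figure D1:**
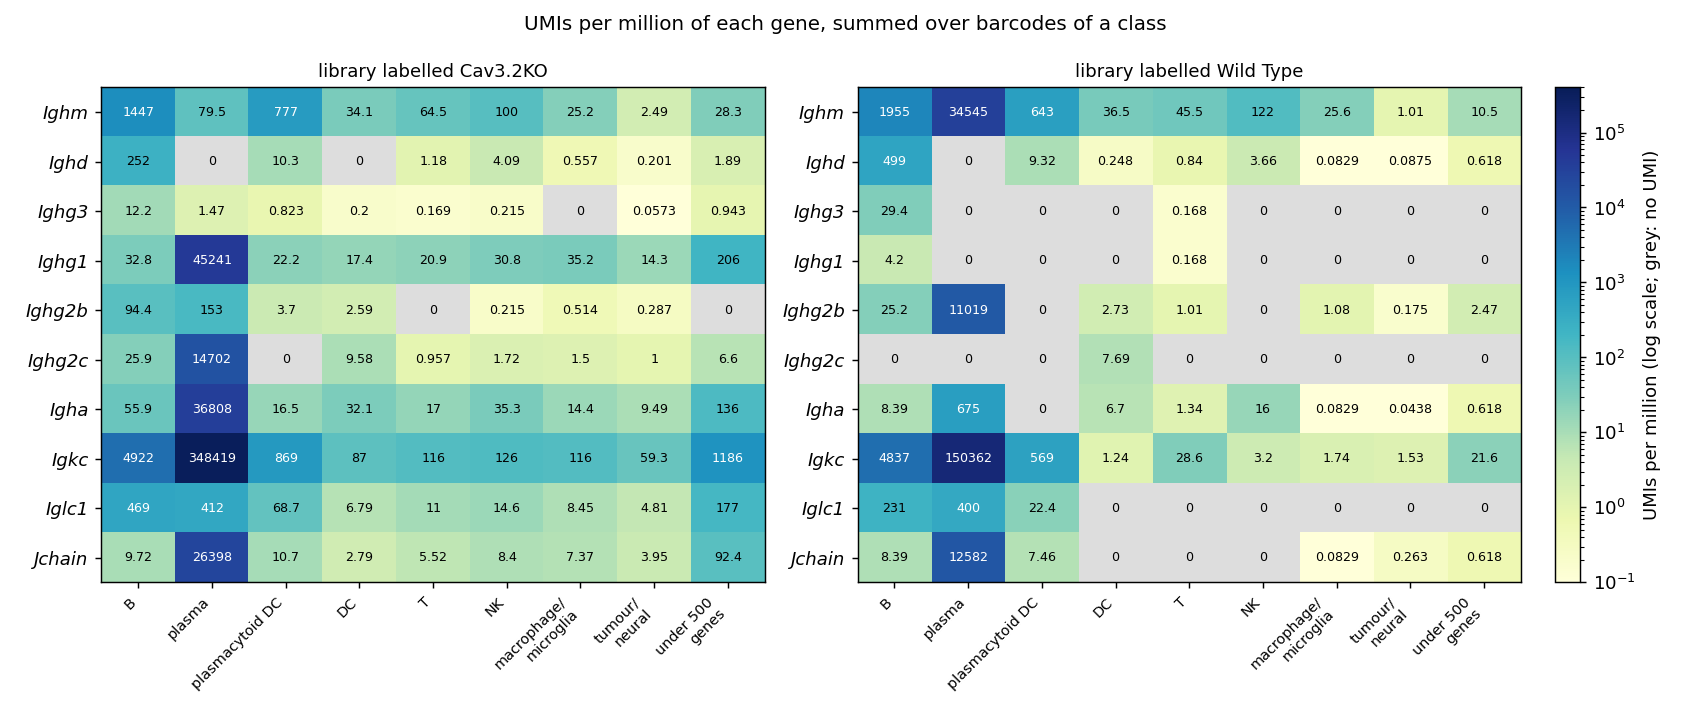
CPM (colour on a log scale, values printed, grey where no UMI was counted) of each gene in each gated class and in barcodes under 500 genes, Cav3.2KO label left and Wild Type label right. Igkc has the highest level of the 10 genes in the B cells, plasma cells and low barcodes of both libraries, while Ighm has the highest in the plasmacytoid, dendritic, T, NK and macrophage classes under the Wild Type label but not under the Cav3.2KO label.

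Ighm and Ighd, the genes of unswitched B cells, led the heavy chains of gated B cells in both libraries. Ighm, the IgM heavy chain, had 3573 UMIs (1447 CPM, exact 95% Poisson interval 1400.3 to 1496) under the Cav3.2KO label and 466 UMIs (1955 CPM, 1782 to 2141) under the Wild Type label. The ratio was 0.740 (0.672 to 0.817), outside counting error but under the 2-fold size used here to call a difference. Ighd, the IgD heavy chain, had 622 UMIs (252 CPM) and 119 UMIs (499 CPM), a ratio of 0.505 (0.414 to 0.619), which lies just inside 2-fold. An Ighm UMI was found in 261 of 289 B cells (90.3%) and in 54 of 58 (93.1%), and both Ighm and Ighd UMIs in 191 of 289 (66.1%) and 41 of 58 (70.7%). Single cells overlapped widely. The median B cell had 14.8 Ighm UMIs per 10000 (quartiles 8.51 to 21.8) under the Cav3.2KO label and 16.7 (9.77 to 23.2) under the Wild Type label. For Ighd the medians were 2.27 and 4.35 per 10000. The median depth of these cells was 7014 and 3736.5 UMIs.

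The switched isotypes were sparse in B cells. Ighg2b, the IgG2b heavy chain, had 233 UMIs in 28 of 289 cells (9.69%) under the Cav3.2KO label and 6 UMIs in 2 of 58 cells (3.45%) under the Wild Type label, or 94.4 and 25.2 CPM. Under the Cav3.2KO label no Ighg2b UMI was seen in 1591 T cells, nor in the barcodes under 500 genes. It was found in 3.29% of dendritic cells (13 UMIs), 0.660% of macrophages or microglia (12 UMIs) and 0.484% of tumour or neural cells (10 UMIs) of that library. Ighg2b was also found there in 2.39% of plasmacytoid dendritic cells and 0.157% of NK cells, and gated plasma cells held 104 UMIs. Ighg2c, the IgG2c heavy chain of C57BL/6 mice, had 64 UMIs in 19 cells (6.57%, against 1.01% of T cells in that library). It had no UMI in 58 cells under the Wild Type label, where 3 counts would be 12.6 CPM.

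Ighg1 and Igha also had UMIs in many cells of other classes. Ighg1, the IgG1 heavy chain, had a UMI in 19.4% of B cells under the Cav3.2KO label, but also in 19.5% of T cells of that library, whose median depth was 8798 UMIs. Thinned to 2000 UMIs per cell the shares were 7.42% (4.65 to 11.1%) of B cells and 4.51% (3.54 to 5.66%) of T cells, with intervals that overlap. The Ighg1 level was 32.8 CPM (26.1 to 40.8) in B cells, 20.9 in T cells, 30.8 in NK cells and 35.2 in macrophages or microglia of that library, and the part of free RNA in it was not tested. A single macrophage or microglia barcode held 384 Ighg1 UMIs. With that barcode Ighg1 made up 16.8% of the UMIs of the 10 genes in its class, and without it 11.3%. Igha, the IgA heavy chain, was found in 19.0% of B cells against 14% of T cells, which became 6.01% against 3.56% when every cell was thinned to 2000 UMIs. In all B cells under the Wild Type label Ighg1 had 1 UMI and Igha 2 UMIs. Ighg3, the IgG3 heavy chain, had 30 and 7 UMIs, and Ighe, the IgE heavy chain, had none in either.

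By cell, a B cell was counted as switched when a gamma, epsilon or alpha gene had at least 3 UMIs and more than Ighm and Ighd together. This was met by 23 of 289 B cells under the Cav3.2KO label (7.96%, 5.11 to 11.7%) and 1 of 58 under the Wild Type label (1.72%, 0.0436 to 9.24%). The intervals overlap, and the part of the different depths was not tested. Ighg2b led in 14 of the 23 cells, Igha in 4, Ighg1 in 3 and Ighg2c in 2, and Ighg2b led in the 1 cell under the Wild Type label. Of the 23 cells, 2 also held 5 or more Ighm UMIs.

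**Figure D2:**
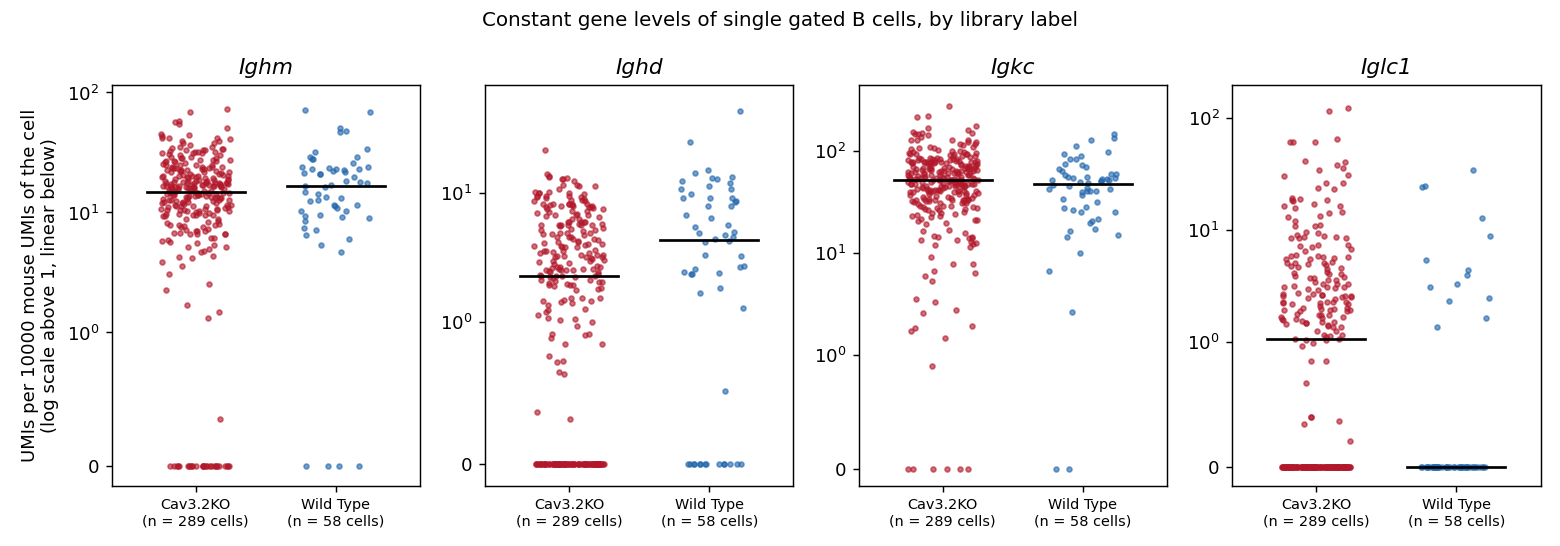
Each point is 1 gated B cell (289 under the Cav3.2KO label left, 58 under the Wild Type label right in each panel), the y axis gives UMIs of the gene per 10000 mouse UMIs of the cell (log scale above 1, linear below), and the black bar is the median. The clouds overlap for Ighm, Ighd and Igkc, and the median of Iglc1 is 1.06 under the Cav3.2KO label and 0.0 under the Wild Type label.

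Among light chains, Igkc, the kappa constant gene, was the most abundant member in B cells and the closest between the libraries. It had 12151 UMIs (4922 CPM, 4835 to 5011) under the Cav3.2KO label and 1153 UMIs (4837 CPM, 4562 to 5125) under the Wild Type label, a ratio of 1.02 (0.958 to 1.08). An Igkc UMI was found in 283 of 289 and 56 of 58 cells. Iglc1, the lambda 1 constant gene, had 1158 UMIs (469 CPM) and 55 UMIs (231 CPM), a ratio of 2.03 (1.55 to 2.72). It was unevenly spread, with UMIs in 158 of 289 cells (54.7%) and 14 of 58 cells (24.1%), and up to 94 and 12 UMIs in a single cell. Within cells that carried Y-linked but not Xist UMIs the log2 ratio of Iglc1 was 0.70, against 1.02 in all B cells. In barcodes under 500 genes Iglc1 stood at 177 and 0 CPM, and the part of free RNA in the B cell difference was not tested.

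Iglc2 and Iglc3, the near-identical lambda genes, had ratios of 1.15 (0.965 to 1.39) and 0.996 (0.821 to 1.22). Of the B cells with at least 5 light chain UMIs, lambda genes made up over 50% of the light chain UMIs in 29 of 285 (10.2%, 6.92 to 14.3%) under the Cav3.2KO label and 2 of 52 (3.85%, 0.469 to 13.2%) under the Wild Type label. Iglc1 and Iglc2 each led in 13 of those 29 cells, and Iglc3 in 3. A lambda share of 10 to 50% was the most common pattern, in 180 of 285 (63.2%) and 38 of 52 (73.1%) cells.

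Of the 10 genes, 8 had at least 50 UMIs in the B cells of both libraries together. By size alone 5 were at least 2-fold higher under the Cav3.2KO label and none at least 2-fold lower, where 7.36% of 6240 genes measured in B cells were higher and 2.68% lower. The 5 were Ighg1 with a ratio of 7.82 (1.36 to 313), Igha with 6.66 (1.81 to 55.6), Ighg2b with 3.75 (1.70 to 10.3), Iglc1 and Ighg2c. Ighg2c was 2.06-fold higher with its 0 replaced by 3 counts, and the exact lower limit of its ratio was 1.63. The median log2 ratio of the 8 members was 1.03 with Ighg2c at the value for 3 counts, against -0.02 for all 6240 genes. Ighg1, Igha and Iglc1 are also the members, beside Igkc, with most UMIs in the free RNA of that library, and Ighg1, Igha, Ighg2b and Ighg2c rest on 1, 2, 6 and 0 UMIs under the Wild Type label. Without the B cell with most UMIs of the gene in each library the log2 ratio of Ighg2b was 2.63, against 1.91 with it, and that of Igha 3.37, against 2.74. Under the Wild Type label the cell left out held 3 of the 6 Ighg2b UMIs and 1 of the 2 Igha UMIs, so these rises rest on very few counts. The summed level of all 10 genes was 7322 and 7598 CPM, a log2 ratio of -0.05 (-0.12 to 0.02).

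A list of 27 genes of antibody assembly, secretion and B cell identity gave the setting. Cd79a and Cd79b in it were also markers of the B cell gate, and Mzb1, Derl3, Fkbp11 and Prdm1 of the plasma cell gate. In B cells 19 were measured, 3 were at least 2-fold higher under the Cav3.2KO label, none was lower, and the median log2 ratio was -0.13. The 3 were Tent5c, a poly(A) polymerase acting on secretory transcripts, with 169 and 4 UMIs, Fcrl5, a B cell receptor of the Fc receptor-like family, with 333 and 10 UMIs, and Pdia4, a disulfide isomerase of the endoplasmic reticulum, with 220 and 10 UMIs. Cd79a and Cd79b, the signalling partners of the membrane receptor, had ratios of 0.789 (0.716 to 0.873) and 0.734 (0.637 to 0.848). Since the B cells were chosen by detection of these 2 genes among others, their ratios cannot be set against that of Ighm.

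Plasma cells held most of the immunoglobulin UMIs of both libraries. The 24 gated cells under the Cav3.2KO label carried 320678 member UMIs, 73.4% of those in kept cells, and the 4 under the Wild Type label 16757 UMIs, 76.0%. Members took 47.2% of all UMIs in these cells under the Cav3.2KO label and 21.0% under the Wild Type label. The sums hide unlike cells. Under the Cav3.2KO label 23 of the 24 cells had at least 1000 member UMIs and 1 had 3. Under the Wild Type label 2 cells had 11060 and 5697 member UMIs and the other two had none, although each passed the gate. These other two supplied 45114 of the 79954 UMIs of that pool, or 56.4%. Over the antibody-rich cells alone, a set chosen by these same UMIs, members took 50.8% and 48.1%. All 4 Wild Type cells were among the highest doublet scores of their library, and none of the 24 was called a doublet.

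In each antibody-rich plasma cell 1 heavy chain gene prevailed. Under the Cav3.2KO label Igha led in 10 cells, Ighg1 in 9 and Ighg2c in 4, and the leading gene took at least 97.4% of the heavy chain UMIs of its cell. The leading gene had 391 to 4238 UMIs in Igha cells, 1476 to 5829 in Ighg1 cells and 837 to 4992 in Ighg2c cells. No gated plasma cell of that library was led by Ighm. The 54 Ighm UMIs were spread over 4 cells, 2 of them Ighg2c cells with 19 and 22 Ighm UMIs. Under the Wild Type label the cell with 11060 member UMIs had 2762 Ighm UMIs and no other heavy chain UMI. The other had 881 Ighg2b UMIs and 54 Igha UMIs, so Ighg2b took 94.2% of its heavy chain UMIs. With 2 cells to set against 23, no isotype share can be compared.

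**Figure D3:**
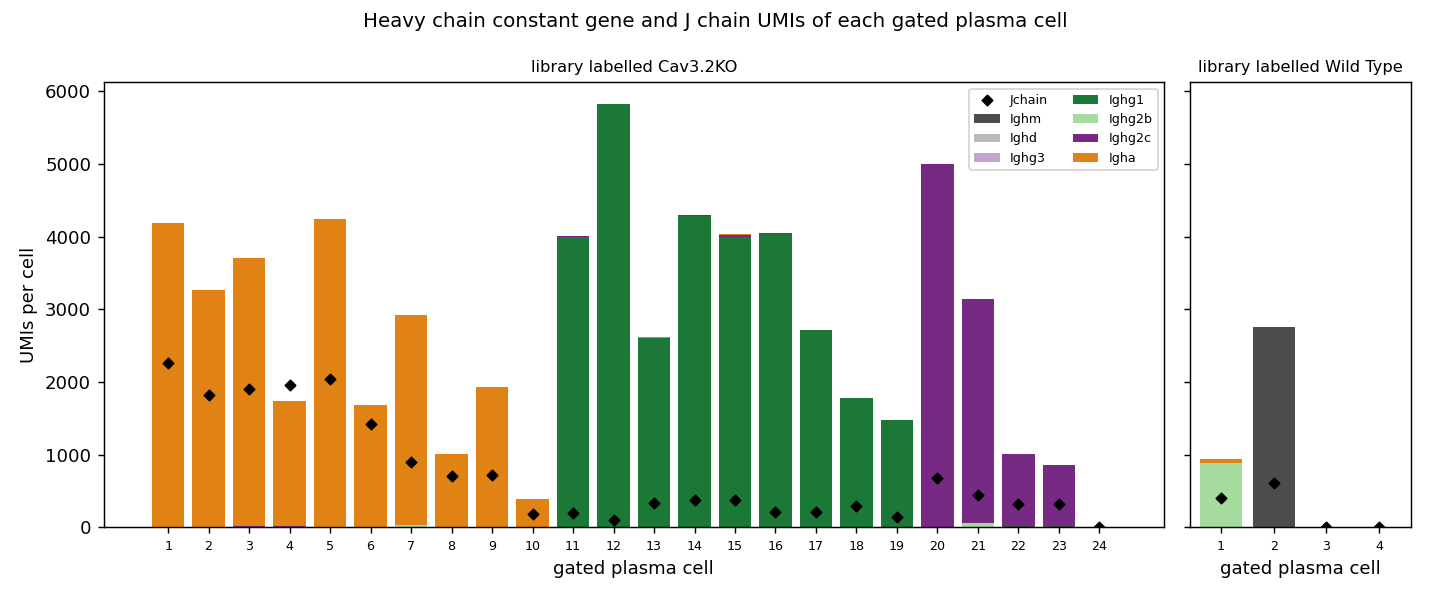
Bars give the heavy chain constant gene UMIs of each gated plasma cell, coloured by gene, and black diamonds its Jchain UMIs, for 24 cells under the Cav3.2KO label (left) and 4 under the Wild Type label (right). Each tall bar is mostly of 1 colour, with an Igha part on the Ighg2b cell under the Wild Type label, and cell 24 on the left and cells 3 and 4 on the right have no visible bar.

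All antibody-rich plasma cells were kappa cells. Igkc made up 91.9 to 99.9% of the light chain constant UMIs in Igha cells, 99.0 to 99.9% in Ighg1 cells and 98.6 to 99.8% in Ighg2c cells under the Cav3.2KO label, and 99.1 and 99.4% in the 2 cells under the Wild Type label. No antibody-rich plasma cell was mostly lambda, and 29 of 285 B cells under the Cav3.2KO label were mostly lambda. The antibody-rich cells are few and were chosen by member UMIs, which include Igkc but not Iglc2 or Iglc3. Several of them also shared a variable gene pair, so these shares cannot be compared. Iglc1 stood at 412 (365 to 464) and 400.2 (274 to 565) CPM in gated plasma cells. The lowest kappa share belonged to an Igha cell with 1753 member UMIs, 5.21% of its UMIs, the poorest in antibody transcripts of the 23. Igkc UMIs outnumbered heavy chain UMIs in all of these cells, by 2.12 to 8.84 per heavy chain UMI under the Cav3.2KO label.

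Because the sums rest on few cells, the ratios of plasma cells are given as descriptions of these libraries. By size 5 of 8 measured members were at least 2-fold higher under the Cav3.2KO label and 2 lower, where 13.7% of 1450 genes were higher and 19.9% lower. The 2 lower genes were Ighm and Ighg2b, the genes of the 2 Wild Type cells. The median log2 ratio of the 8 was 1.14, against -0.21 for all 1450 genes. These ratios change when the 2 Wild Type cells without member UMIs are left out. Over the 23 and 2 antibody-rich cells, a comparison added after the values were seen, 3 of 8 members were at least 2-fold higher and 3 lower, where 15.7% of 1056 genes were higher and 8.52% lower. The 3 higher were Ighg1, Ighg2c and Igha, and the 3 lower Ighm, Ighg2b and Iglc1. Igkc then had a ratio of 1.09 (1.07 to 1.11) and Jchain 0.983 (0.922 to 1.05), while both were at least 2-fold higher over all gated cells. Of the 27 listed genes 18 were measured, 12 were at least 2-fold higher and none lower over all gated cells, with a median of 1.22. Over the antibody-rich cells 3 were higher (Pou2af1, Sdf2l1 and Vpreb3), 1 was lower (Iglc3) and the median was 0.22. Ssr4, part of the protein translocation channel complex, had 1188 and 53 UMIs and a ratio of 2.64 (2.0 to 3.54), which was 1.61 (1.17 to 2.26) over the antibody-rich cells. Hspa5, the chaperone BiP that holds free heavy chains, had 849 and 43 UMIs and a ratio of 2.32 (1.71 to 3.24), and 1.93 (1.28 to 3.06) over the antibody-rich cells. Vpreb3, a protein known from early B cells, had 258 UMIs and none. Against 3 counts it was 10.1-fold higher (exact lower limit 8.18), and 4.74-fold (3.83) over the antibody-rich cells. Xbp1, a transcription factor of secretory cells, had 841 and 57 UMIs, a ratio of 1.74 (1.33 to 2.31), and 1.16 (0.842 to 1.63) over the antibody-rich cells.

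Jchain differed in level between the isotypes of the gated plasma cells. Per 100 heavy chain UMIs, Igha cells had 31.0 to 112 Jchain UMIs with a median of 52.7, Ighg2c cells 13.5 to 37.3 with a median of 23.2, and Ighg1 cells 1.80 to 16.3 with a median of 8.74. The ranges of Igha and Ighg1 cells did not overlap, and that of Ighg2c cells overlapped with both. The ranges of Igha and Ighg1 did overlap among the antibody-rich cells outside the gate, where 3 Igha cells had 10.0, 10.9 and 52.0 and 7 Ighg1 cells 1.46 to 21.0. Per cell, Igha cells had 185 to 2266 Jchain UMIs and Ighg1 cells 105 to 377. Per 10000 UMIs outside the immunoglobulin genes the ranges did overlap, at 58.2 to 2381 in Igha cells and 95.4 to 391 in Ighg1 cells, with medians of 923 and 201. The Ighm cell under the Wild Type label had 22.0 and the Ighg2b cell 42.7 Jchain UMIs per 100 heavy chain UMIs. The cells of each label come from 1 library and may share a clone, so they are not replicates. In B cells Jchain was nearly absent, with 24 UMIs in 24 of 289 cells and 2 UMIs in 1 of 58 cells.

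**Figure D4:**
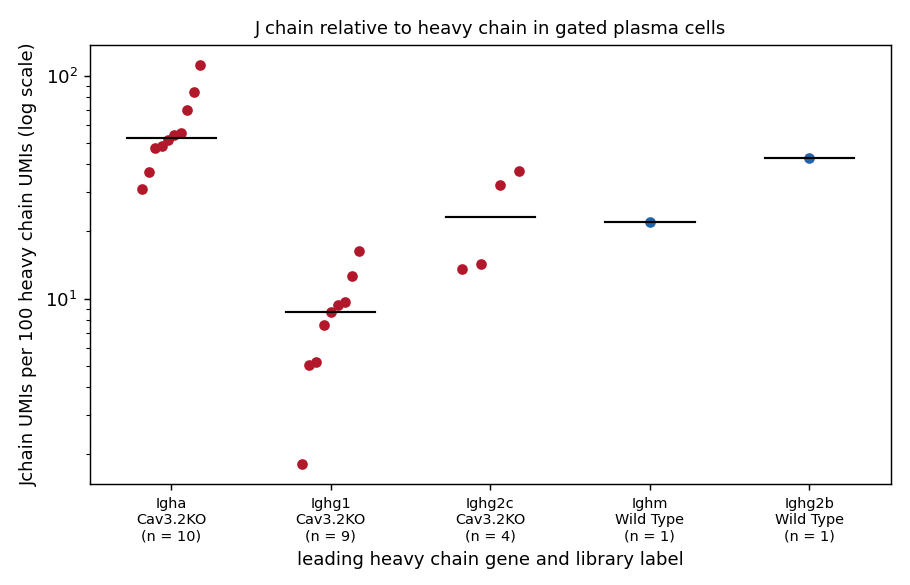
Jchain UMIs per 100 heavy chain UMIs (log scale) in gated plasma cells, grouped by their leading heavy chain gene, Cav3.2KO label left and Wild Type label right, with a bar at the median and n in cells. The 10 Igha cells lie between 31.0 and 112 and the 9 Ighg1 cells between 1.80 and 16.3.

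The variable genes of these cells were compared. For each cell with at least 300 member UMIs, the heavy and kappa variable genes with most UMIs were taken where they had at least 3. Variable genes of a family are alike, and 3′ reads cover them in part, so the assignments are uncertain. Under the Cav3.2KO label Ighv1-18 with Igkv4-70 occurred in 5 Igha cells and 1 Ighg2c cell, and Ighv3-8 with Igkv10-96 in 4 Ighg1 cells. Ighv9-3 with Igkv12-46 and Ighv1-81 with Igkv4-70 each occurred in 3 Ighg1 cells, Ighv10-3 with Igkv6-20 in 2 Igha cells, and Ighv5-6 with Igkv6-23 in 2 Ighg1 cells. The pairs shared by 2 or more cells thus lay within 1 isotype, with the exception of Ighv1-18 with Igkv4-70. The 2 Wild Type cells had Ighv1-18 with Igkv3-10 and Ighv1-55 with Igkv6-23. Although all of these cells were kappa cells, the lambda variable gene Iglv1 had UMIs in them too, up to 358 in an Igha cell that had 2 Iglc1 UMIs.

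The gate missed some antibody-rich cells. Under the Cav3.2KO label 10 further kept cells had at least 1000 member UMIs and belonged to no class, 7 of them led by Ighg1 and 3 by Igha. They held 73347 member UMIs, 16.8% of those in kept cells, so that 33 cells carried 90.2% of them. Under the Wild Type label no cell outside the gate reached 1000, and the highest had 921. This threshold was chosen after the values were seen. Of the 33 cells 31 had Xist and no Y-linked UMI, 1 had UMIs of both and 1 had neither, while both antibody-rich cells under the Wild Type label had Y-linked UMIs. Among the 928 cells of the Cav3.2KO library that carried Y-linked but not Xist UMIs no plasma cell was gated, where 3 cells would be 0.323%. Under the Wild Type label 4 of the 2077 such cells were gated (0.193%), 2 of them without a member UMI.

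Outside B and plasma cells the level of member UMIs followed the library. Barcodes under 500 genes, in which free RNA weighs most, had 1945 member UMIs (1835 CPM, 1754 to 1918) under the Cav3.2KO label and 59 (36.5 CPM, 27.8 to 47.0) under the Wild Type label. Barcodes under 200 UMIs reached 18620.3 and 223 CPM. Tumour or neural cells, which should not transcribe these genes, had 95.9 and 3.11 CPM, with a member UMI in 85.1% and 9.31% of cells at median depths of 24571 and 29588 UMIs. Under the Cav3.2KO label 64.6% of the member UMIs in low barcodes were Igkc, 11.2% Ighg1, 9.67% Iglc1 and 7.40% Igha.

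The make-up of these UMIs did not match the gated plasma cells in every gene. Jchain per 100 Igkc UMIs was 7.80 in low barcodes, 6.67 in tumour or neural cells and 7.58 in plasma cells of the Cav3.2KO library, and Igha per 100 Igkc UMIs was 11.5, 16 and 10.6. Iglc1 per 100 Igkc was 15 in low barcodes and 8.12 in tumour or neural cells, but 0.118 in plasma cells and 9.53 in B cells. Relative to Igkc, Iglc1 was thus higher in low barcodes than in gated plasma cells. No cell rich in Iglc1 was found among the 33 antibody-rich cells, where the highest had 58 Iglc1 UMIs.

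Ighm stood apart from this pattern. In low barcodes of the Cav3.2KO library 41.9 Igkc UMIs were counted per Ighm UMI and in its tumour or neural cells 23.8, but only 1.25 in NK cells, 1.80 in T cells, 2.55 in dendritic cells and 4.63 in macrophages or microglia. Without the cell with most member UMIs the value in macrophages or microglia was 3.60. Under the Wild Type label, whose low barcodes held few member UMIs, Ighm outnumbered Igkc in these classes, with 0.0263 Igkc UMIs per Ighm UMI in NK cells, 0.0340 in dendritic cells, 0.0680 in macrophages or microglia and 0.627 in T cells. NK cells had 466 Ighm UMIs (100 CPM, 91.5 to 110) and 266 (122 CPM, 108 to 137). Macrophages or microglia had 587 (25.2 CPM, 23.2 to 27.3) and 309 (25.6 CPM, 22.8 to 28.6), and dendritic cells 34.1 and 36.5 CPM. In each of these 3 classes the Ighm intervals of the libraries overlap, while those of Igkc do not, with 126 (116 to 136) and 3.2 (1.29 to 6.60) CPM in NK cells. T cells had 64.5 (60.8 to 68.3) and 45.5 (40.3 to 51.3) CPM of Ighm.

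Ighm was also spread over many cells of these classes. At full depth an Ighm UMI was found in 39.8% and 41.3% of NK cells and in 5.25% and 3.24% of tumour or neural cells. After thinning to 2000 UMIs per cell the shares were 14.8% and 16.4% in NK cells, 12% and 8.52% in T cells, 7.09% and 4.82% in macrophages or microglia, 6.27% and 5.98% in dendritic cells, and 0.820% and 0.141% in tumour or neural cells. The thinning left out 6 and 2 NK cells, 17 and 9 T cells, 19 and 9 macrophages or microglia, 1 dendritic cell per library, and 19 and 1 tumour or neural cells. The shares in the 4 immune classes lay above that of tumour or neural cells in both libraries.

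**Figure D5:**
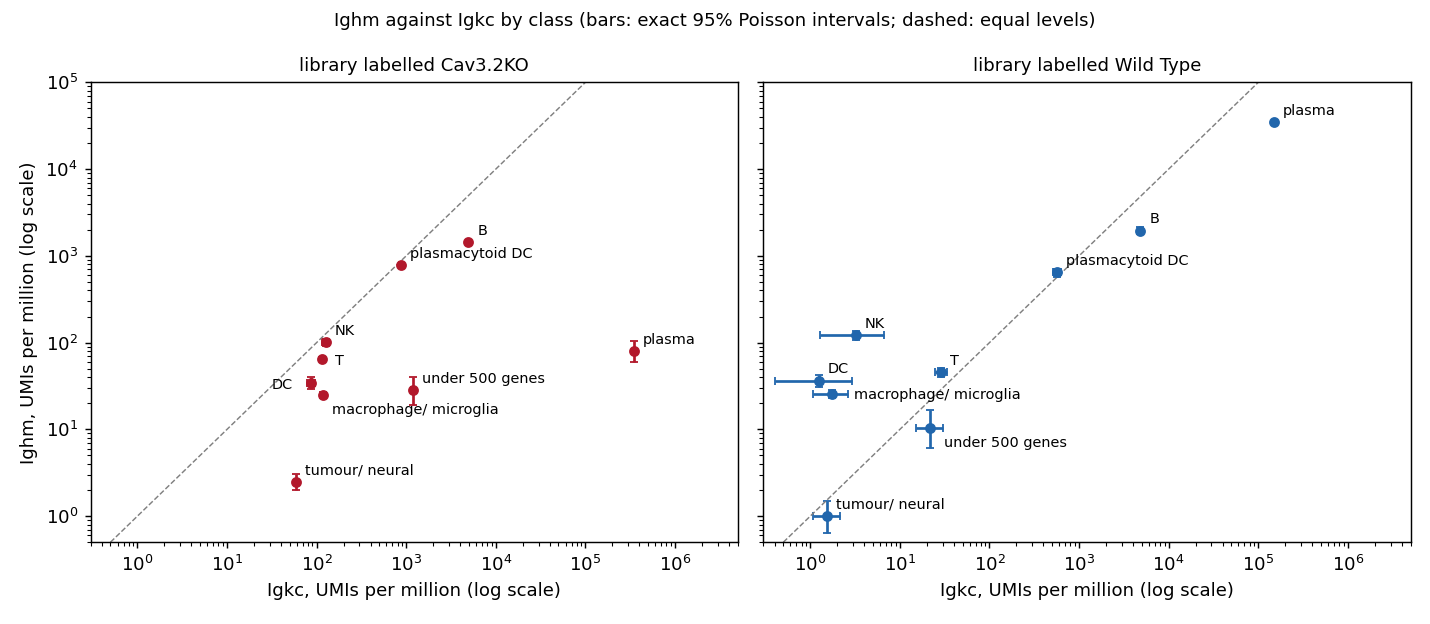
Ighm against Igkc in CPM (both axes on log scales) for each gated class and for barcodes under 500 genes, Cav3.2KO label left and Wild Type label right, with exact 95% Poisson intervals and a dashed line where both are equal. Under the Wild Type label NK, dendritic and macrophage classes lie far above the line, and under the Cav3.2KO label plasma cells, low barcodes and tumour or neural cells lie far below it.

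Plasmacytoid dendritic cells, cells known for making interferon, had the highest level of Ighm after B cells under the Cav3.2KO label, and after plasma and B cells under the Wild Type label. Ighm stood at 777 (742 to 812) and 643 (577 to 715) CPM, with a UMI in 209 of 209 and 58 of 59 cells and no more than 24 and 18 UMIs in a single cell. Igkc stood at 869 and 569 CPM and was found in 92.3% and 79.7% of these cells. Iglc3 stood at 997 (958 to 1038) and 587 (524 to 656) CPM, above its level in B cells of the same library, 476 (449.5 to 504) and 478 (395 to 575). Its split from Iglc2, at 362 and 199 CPM, is uncertain. Cd79a, which marks B cells, had 1 UMI in the plasmacytoid cells of each library, and Iglc1 68.7 and 22.4 CPM. Cd79b, also a B cell marker of the gate, had 88 and 14 UMIs (36.2 and 26.1 CPM) in them. Its level was 677 and 923 CPM in B cells and 6.36 and 6.38 CPM in T cells. The thinned share of cells with an Ighm UMI was 77.9% and 66.1%.

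Switched genes also had UMIs in dendritic cells. Ighg2c had 48 UMIs in 36 of 304 dendritic cells (11.8%) under the Cav3.2KO label and 31 UMIs in 25 of 252 (9.92%) under the Wild Type label, where no other gated class had an Ighg2c UMI. The levels were 9.58 (7.06 to 12.7) and 7.69 (5.23 to 10.9) CPM. In B cells under the Wild Type label, which had no Ighg2c UMI, 3 counts would be 12.6 CPM, above these levels. No single dendritic cell had more than 3 and 2 Ighg2c UMIs. When split by Xcr1, a receptor of cross-presenting dendritic cells, after the values were seen, 42 of the 48 UMIs and all 31 lay in the 117 and 141 cells with an Xcr1 UMI. Igha had 161 and 27 UMIs in dendritic cells, and under the Wild Type label also 35 UMIs in 22 of 264 NK cells (8.33%, 16 CPM) against 1 UMI in 709 tumour or neural cells. Igkc in the same dendritic cells had 436 and 5 UMIs. Thinned to 2000 UMIs, 4 of 303 and 1 of 251 dendritic cells kept an Ighg2c UMI, near the level of a single UMI.

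For likeness across classes, each gene was correlated with the others on log2(CPM + 1) over the 14 class sums with at least 50 cells, which leaves plasma cells out. Among 15746 genes outside the immunoglobulin loci, Ighm was most like Ptp4a3 (Pearson r 0.97), Eml4 (0.97) and Rasgrp2 (0.96). Igkc was most like Krt10 (0.91), Trim34a (0.90) and Pml (0.90), and Jchain most like Son (0.92), 9030025P20Rik (0.84) and Zup1 (0.83). The points share libraries and depths, so these values are descriptions.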

How the data were processed

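Each library was a 10x Genomics 3′ v3.1 library of brain tissue dissociated with a neural tissue kit, per the labels' protocols. The authors deposited UMI counts for each gene in each barcode. Cell Ranger 7.1.0, per the file headers, made them, and the submitters' processing notes also name Seurat 5.0.2 and the build mm10. The reference held 68886 genes, 32285 of them mouse, and only these were used. The members, markers and lists were chosen with earlier results of these data known.

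Kept barcodes had 500 or more mouse genes and a mitochondrial share of 10% or less (6575 and 3110 cells). A barcode was gated to the class with most of its 8 markers detected, with at least 3 markers and a lead of 2 over the next class, and plasma cells also needed an Sdc1 or Tnfrsf17 UMI. This left 11.1% and 10.2% of kept cells ungated. Doublets called by Scrublet (165 and 77 cells) were kept. The automatic threshold marked 0.257% under the Wild Type label, so there the highest scores were taken, up to the number of doublets expected.

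UMIs of a gene were summed over a class and scaled to CPM (1000000 mouse UMIs). They count 3′ ends and were not divided by length. Intervals are exact at 95% (Poisson, binomial, or conditional on the sum for ratios). Ratios are Cav3.2KO over Wild Type, called by size at 2-fold among genes with at least 50 UMIs in a class, with 3 counts in place of 0. No p-values were computed. The ratio step was tested on simulated counts. Named genes are the 10 members, the listed pathway genes and the 3 genes most like Ighm, Igkc and Jchain. Thinning, gate, filter, scaling and doublet alternatives were tried. Positions and sequences are from GENCODE M21 (GRCm38). The tools were scanpy 1.11.5, pandas 2.3.3, scipy 1.17.1, numpy 2.4.6 and matplotlib 3.10.9 in Python 3.11.15.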

Additional observations from a re-analysis of the deposited data

How the results depend on the processing

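The levels, ratios and shares were computed again under other gates, filters and scalings. Of 148 recomputed values for the main comparisons 108 stayed near the value reported (within its counting interval, or within 1.5 times for a count of genes) and 40 did not, and none reversed. Of 724 values for single genes and shares 173 moved and 2 reversed. The mitochondrial limit of 20% moved none of the main values.

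For plasma cells (472214 and 209583 member CPM, log2 ratio 1.17) the ratio rests on 4 gated cells under the Wild Type label. Needing 4 of 8 markers gave 304684 CPM under the Wild Type label and a log2 ratio of 0.63. A lead of 1 marker gave 446610.0 and 102392 CPM and 2.12. Without the cell with most UMIs in each library the values were 458509 and 93735 and 2.29, as means over cells 479667 and 235116 and 1.03, and scaled to UMIs outside immunoglobulin genes 906472 and 266060 and 1.77. Over gated cells with at least 1000 member UMIs, an alternative chosen after the values were seen, 3 members were at least 2-fold higher, and of the listed genes 3 were higher and 1 lower, against 5, 12 and 0 over all gated cells. The log2 ratio of Jchain was then -0.025, against 1.07, and that of Irf4 -0.010, against 1.08, the 2 counted as reversed. Mzb1 (0.86 to -0.23), Cd79a (0.99 to -0.11), Iglc1 (0.04 to -1.05) and Iglc3 (0.03 to -1.07) also changed sign. Each of these had been under 2-fold over all gated cells. Removing called doublets left no gated plasma cell under the Wild Type label (0.0%), and in cells that carried Y-linked but not Xist UMIs the Cav3.2KO share was 0.0%.

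For B cells (7322 and 7598 CPM, log2 ratio -0.05) a lead of 1 marker gave 7131 and 7220 CPM. The mean over cells gave 8399.9 under the Cav3.2KO label and a log2 ratio of 0.11. Y-linked cells gave 7755 under the Cav3.2KO label, a log2 ratio of 0.019 and a B cell share of 5.82%.

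Elsewhere, T cells (237 and 77.6 CPM) had 292 as a mean over cells and 228 in Y-linked cells under the Cav3.2KO label, and 66.1 without the top cell under the Wild Type label. Tumour or neural cells (95.9 and 3.11) had 107 and 6.49 with a lead of 1 marker, 132 under the Cav3.2KO label as a mean over cells, and 121 and 4.29 in Y-linked cells. Low barcodes (1835 and 36.5) had, under the Cav3.2KO label, 2251 below 300 genes and 2174 below 1000 genes. Means over barcodes were 3058 and 123, and barcodes with Y-linked but not Xist UMIs had 1674 and 0.0. The causes were not tested.

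No paired analysis was possible because each group has 1 library. For the same reason leaving out a replicate was not possible. Depth limits the B cells under the Wild Type label (median 3736.5 UMIs). The plasma cells there are limited by their number, 4.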
